A study of Mus musculus with 16 samples.

Results

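The data described here are the RNA levels of 10 mouse genes for enzymes that break down or conjugate odorants, inhaled compounds, retinoids and reactive aldehydes in the nose and lung. The genes were taken by name and matched to the gene symbols in the deposited count tables, and all 10 were found, among 24421 genes in the tables that hold the tumour organoids and 51912 entries in the table of normal organoids. They are Ugt2a1, Sult1c1, Cyp2a5, Cyp2f2, Cyp2b10, Aldh1a1, Aldh1a3, Aldh3a1, Gsta4 and Nqo1. Organoids are miniature tissues grown in culture, and all 16 libraries held polyadenylated RNA of organoids from C57BL/6 mice. Ctr (3 libraries) and Lung-Ctr (2 libraries) had the genotype TMP, which is Trp53-/-;Myc;sgCdkn2a, that is, loss of the tumour suppressor Trp53, the oncogene Myc and a guide RNA against Cdkn2a. LMP1 (2 libraries) and Lung-LMP1 (3 libraries) were TMPL, the same genotype with LMP1, through which Epstein-Barr virus signals at the membrane of the cells it infects, so the 3 TMP alterations were shared by every tumour group. The tumours had formed in recipient mice after cells were placed in the nasopharynx. Normal_nasopha (3 libraries) and Normal_lung (3 libraries) were untreated organoids made from healthy nasopharynx and from healthy lung. The sample descriptions call TMP tumours primary and TMPL tumours metastases, whereas the design text names both kinds for each genotype, so groups are named here by the sample titles only. No label states an age, a sex, the number of founder clones or whether replicates were separate animals or cultures, and a p-value below therefore reflects the spread among these libraries, which may be technical.

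The deposited table that sets Ctr against normal nasopharynx has 3 more columns of normal tissue, whose headings name lung. Over 22573 shared gene symbols, their log2 counts correlated at 0.981 to 0.982 with the Normal_nasopha library of the same replicate number, at 0.949 to 0.957 with the other Normal_nasopha libraries and at 0.894 to 0.911 with the Normal_lung libraries. They are called the normal comparator below, and all comparisons of tumours with normal tissue use these 3 columns, since the tables with the tumours were counted against a different gene set from the table of normal organoids.

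Foreign compounds are cleared in steps. Phase I enzymes, chiefly cytochromes P450, oxidise a compound, and phase II enzymes then attach glucuronic acid, sulfate or glutathione, which makes it soluble and inactive. The olfactory mucosa is unusually rich in both kinds, with Cyp2a5 and Ugt2a1 among its typical enzymes, while Cyp2f2 is best known from the club cells of the airways. Aldehyde dehydrogenases remove aldehydes from metabolism and smoke, and some of them make retinoic acid. Nqo1 and many glutathione genes are switched on by the transcription factor NRF2 (Nfe2l2) when reactive compounds inactivate its inhibitor KEAP1.

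Several of these genes lie in clusters of near-identical copies, and reads that fit more than 1 copy can be split or dropped in counting. In the GENCODE vM21 transcripts, the coding sequence of Cyp2a5 (chr7:26835305-26843548, plus strand, GRCm38) differed from that of its copy Cyp2a4 at 23 of 1482 bases (98.4% identical), and the longest identical run was 216 bases. Aldh1a1 (chr19:20492715-20643465, plus strand) differed from Aldh1a7 at 126 of 1503 coding bases (91.6% identical), with a longest identical run of 100 bases. The 90 coding bases in which each pair differs most are printed to show how little separates the copies, with the differing bases in capitals. They are coding bases 580 to 669 for the Cyp2a genes, with 5 differences, and 310 to 399 for the Aldh1a genes, with 19 differences.
Cyp2a5: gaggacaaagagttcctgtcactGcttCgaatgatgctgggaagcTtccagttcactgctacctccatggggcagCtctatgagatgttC
Cyp2a4: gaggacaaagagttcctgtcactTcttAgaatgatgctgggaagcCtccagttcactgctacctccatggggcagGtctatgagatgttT
Aldh1a1: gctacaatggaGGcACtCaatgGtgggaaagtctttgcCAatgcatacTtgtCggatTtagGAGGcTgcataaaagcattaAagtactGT
Aldh1a7: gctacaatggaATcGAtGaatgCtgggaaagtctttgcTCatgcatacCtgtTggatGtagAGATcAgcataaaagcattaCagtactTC

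Of all windows of 50 bases in the transcript, 97% of those of Ugt2a1 (chr5:87459490-87490871, minus strand) and 40.8% of those of Cyp2a5 also occurred in another annotated gene. The share was 10% for Cyp2f2 (chr7:27119909-27133660, plus strand), 9.69% for Cyp2b10 (chr7:25897620-25926624, plus strand) and 6.54% for Aldh1a1. No shared window was found for the other 5 genes, Sult1c1 (chr17:53961615-53990674, minus strand), Aldh1a3 (chr7:66390890-66427517, minus strand), Aldh3a1 (chr11:61207537-61218421, plus strand), Gsta4 (chr9:78182774-78209349, plus strand) and Nqo1 (chr8:107388225-107403206, minus strand). Ugt2a1 and Cyp2a5 thus share the most sequence with other genes.

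RefSeq promoters of build GRCm38.p6 were at hand for 7 of the 10 genes. The 250 bases before the start are printed for Cyp2a5 (chr7:26835089-26835338, plus strand), which was the most nasopharynx-biased P450, for Cyp2f2 (chr7:27119705-27119954, plus strand), which was not, and for Nqo1 (chr8:107403206-107403455, minus strand), the reference target of NRF2. Capitals mark matches to the 5 motifs searched on both strands. NRF2 binds the antioxidant response element, whose core was searched as TGACNNNGC. The aryl hydrocarbon receptor binds the xenobiotic response element, searched as GCGTG. The other searches were TTGCNNAA for a C/EBP core, TATAAA for a TATA box and GGGCGG for a GC box.
Cyp2a5: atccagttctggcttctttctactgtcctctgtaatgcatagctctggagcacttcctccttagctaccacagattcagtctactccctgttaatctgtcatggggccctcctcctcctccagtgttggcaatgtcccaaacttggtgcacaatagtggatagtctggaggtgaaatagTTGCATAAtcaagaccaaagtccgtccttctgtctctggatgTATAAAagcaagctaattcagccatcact
Cyp2f2: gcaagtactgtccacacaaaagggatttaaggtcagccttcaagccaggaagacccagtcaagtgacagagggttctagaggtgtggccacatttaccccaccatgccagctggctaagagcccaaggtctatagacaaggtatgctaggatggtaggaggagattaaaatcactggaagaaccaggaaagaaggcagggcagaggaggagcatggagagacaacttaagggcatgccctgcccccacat
Nqo1: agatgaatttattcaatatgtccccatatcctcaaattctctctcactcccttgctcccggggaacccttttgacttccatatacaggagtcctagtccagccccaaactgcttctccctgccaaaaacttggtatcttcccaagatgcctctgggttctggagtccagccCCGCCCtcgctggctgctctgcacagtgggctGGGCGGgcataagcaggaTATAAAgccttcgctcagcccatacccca

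The Cyp2a5 promoter held a TATA box at base -29 and a C/EBP core at base -71, counted from the RefSeq start. The Nqo1 promoter held a TATA box at base -29 and GC boxes at bases -79 and -47, and the Cyp2f2 window held none of the 5 motifs. No match to TGACNNNGC was present in any of the 7 promoters, which says only that these letters are absent from these windows. Among 32851 promoter windows of the same length, 12.4% held TATAAA, 10.2% TGACNNNGC, 28.2% GCGTG, 9.56% TTGCNNAA and 32.7% GGGCGG.

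Total counts ran from 12535166 to 21737184 per library, so that 3 counts, the limit that a count of 0 allows, corresponded to 0.138 to 0.2393 CPM, the count scaled to a common library total. That limit and the count intervals below cover counting error only. Levels are given in CPM. The alveolar marker genes summed to 69334 to 78097 CPM in Normal_lung and to 166 to 329 CPM in Normal_nasopha, whereas basal-cell markers summed to 101.3 to 252 CPM in Normal_lung and to 2837 to 15016 CPM in Normal_nasopha. The labelled tissues therefore carried their own markers. Of the altered genes, Myc was at 457 to 2005 CPM in the tumour libraries and 62.2 to 100.04 CPM in the normal comparator, and Cdkn2a, the target of the guide RNA, at 122 to 381 CPM and 4.83 to 7.82 CPM. Trp53 RNA was at 58.1 to 109 CPM in the tumours and 63.3 to 156 CPM in the comparator, so total RNA of Cdkn2a and Trp53 does not check the labelled alterations. In bulk libraries, fewer cells of a type and less RNA per cell cannot be told apart.

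The first comparison asked how the enzymes differ between the 2 normal tissues. Nasopharyngeal organoids held far more Cyp2a5, Sult1c1, Aldh1a3, Aldh3a1, Nqo1 and Gsta4 RNA than lung organoids, and lung organoids held more Aldh1a1 and Cyp2b10. By the quasi-likelihood test of edgeR, with Benjamini-Hochberg adjustment over 15886 genes, 6 of the 9 members that passed the count filter were higher in nasopharynx and 2 were lower, at an adjusted p under 0.05. Over all genes tested 31.1% were called, 15.4% as higher and 15.6% as lower. The median log2 difference, nasopharynx minus lung, was 5.88 over the 9 members and 0.13 over all genes. Sult1c1, Cyp2a5 and Aldh1a3, with 1, 54 and 35 counts over the lung libraries, passed the filter only through nasopharynx, where they are high. Their calls could hardly go another way, and they are among the 6 called higher and in the median.

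Among the P450 enzymes, Cyp2a5, which oxidises nicotine and coumarin, was at 141, 567 and 2345 CPM in Normal_nasopha replicates 1, 2 and 3 and at 0.149, 0.855 and 1.60 CPM in Normal_lung. The lowest nasopharyngeal library was far above the highest lung library, although the nasopharyngeal libraries spanned more than an order of magnitude among themselves. The difference was 10.03 ± 1.46 on the log2 scale (SE; edgeR, adjusted p = 0.00313), about 1046-fold. Its copy Cyp2a4 had the same order of libraries, at 1.02, 2.94 and 19.9 CPM in Normal_nasopha and 0, 0 and 0.0486 CPM in Normal_lung.

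Cyp2f2, which activates naphthalene in club cells, was at 78.0, 24.2 and 181 CPM in Normal_nasopha and at 119, 108 and 246 CPM in Normal_lung. The ranges overlapped, and the log2 difference of -0.91 ± 0.69 did not pass the test (edgeR, adjusted p = 0.351). Cyp2f2 was the only tested member whose 2 tissues overlapped. Cyp2b10, a P450 known as a target of the nuclear receptor CAR (Nr1i3), was at 2.47, 4.65 and 4.997 CPM in Normal_nasopha and at 24.2, 12.7 and 18.5 CPM in Normal_lung. Every lung library was above every nasopharyngeal one, and the fold of 5.09 passed the test (edgeR, adjusted p = 0.0060). Nr1i3 itself had a mean of 0 CPM in nasopharynx and 0.0158 CPM in lung and did not pass the count filter. The neighbouring copies Cyp2b9 and Cyp2b19 stayed under 1.46 CPM in every library, and Cyp2b13 and Cyp2b23 were at 0 counts throughout.

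The 3 aldehyde dehydrogenases went in different directions. Aldh1a1, which makes retinoic acid from retinaldehyde, was at 16.01, 3.77 and 17.4 CPM in Normal_nasopha and at 79.5, 96.2 and 128 CPM in Normal_lung, 9.11-fold lower in nasopharynx (edgeR, adjusted p = 0.00611). Aldh1a3, which carries out the same reaction, was at 290.3, 186 and 170.5 CPM in Normal_nasopha and at 0.795, 0.332 and 0.583 CPM in Normal_lung. It was 337-fold higher in nasopharynx, with a log2 difference of 8.40 ± 0.44 and the smallest adjusted p of any member (edgeR, adjusted p = 0.000128). The 2 retinaldehyde enzymes were thus inverted between the tissues. Aldh3a1, which oxidises aromatic and medium-chain aldehydes, was at 697, 441 and 2165 CPM in Normal_nasopha and at 16.9, 20.3 and 13.4 CPM in Normal_lung, 58.7-fold higher in nasopharynx (edgeR, adjusted p = 0.00142).

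Of the conjugating and reducing enzymes, Sult1c1, a cytosolic sulfotransferase, was at 33.6, 7.18 and 80.5 CPM in Normal_nasopha and at 0.0497, 0 and 0 CPM in Normal_lung (edgeR, adjusted p = 0.00198). With 2510 counts against 1 count, the ratio was 2461 with a 95% counting interval of 441 to 97234. The related Sult1c2 did not exceed 0.497 CPM in any library. Gsta4, the glutathione transferase for hydroxynonenal and other lipid aldehydes, was at 2224, 2360.2 and 4279 CPM in Normal_nasopha and at 233, 359 and 279 CPM in Normal_lung, 9.19-fold higher in nasopharynx (edgeR, adjusted p = 0.00113). Nqo1, which reduces quinones, was at 554, 734 and 3342 CPM in Normal_nasopha and at 13.5, 35.1 and 20.1 CPM in Normal_lung, a 61.2-fold difference (edgeR, adjusted p = 0.00331). In all 3 genes each nasopharyngeal library exceeded each lung library. The 8 calls held under every alternative setting run for the normal tissues, each left-out library included. For Sult1c1, Cyp2a5 and Aldh1a3, whose calls could hardly go another way, this is no check. It is one for Cyp2b10, Aldh1a1, Aldh3a1, Gsta4 and Nqo1.

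Several marker lists also differed between the tissues. Squamous markers summed to 1774 to 8392 CPM in Normal_nasopha and 149 to 342 CPM in Normal_lung. The olfactory gland and sustentacular list overlapped between the tissues, at 94.5 to 169 CPM in Normal_lung. It summed to 776.8, 150.3 and 840.2 CPM in Normal_nasopha replicates 1, 2 and 3, which is not the order of Cyp2a5. Its defining P450, Cyp2g1, taken alone, did have the order of Cyp2a5, at 1.74, 6.90 and 68.8 CPM in Normal_nasopha replicates 1, 2 and 3. It was at most 0.0950 CPM in Normal_lung. Other cell markers were higher in lung: the macrophage and leukocyte list summed to 1704 to 2984 CPM in Normal_lung and 118 to 298 CPM in Normal_nasopha, and the fibroblast list to 81.1 to 469.9 CPM and 4.60 to 13.3 CPM. The part of all these markers in the differences was not tested.

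**Figure D1:**
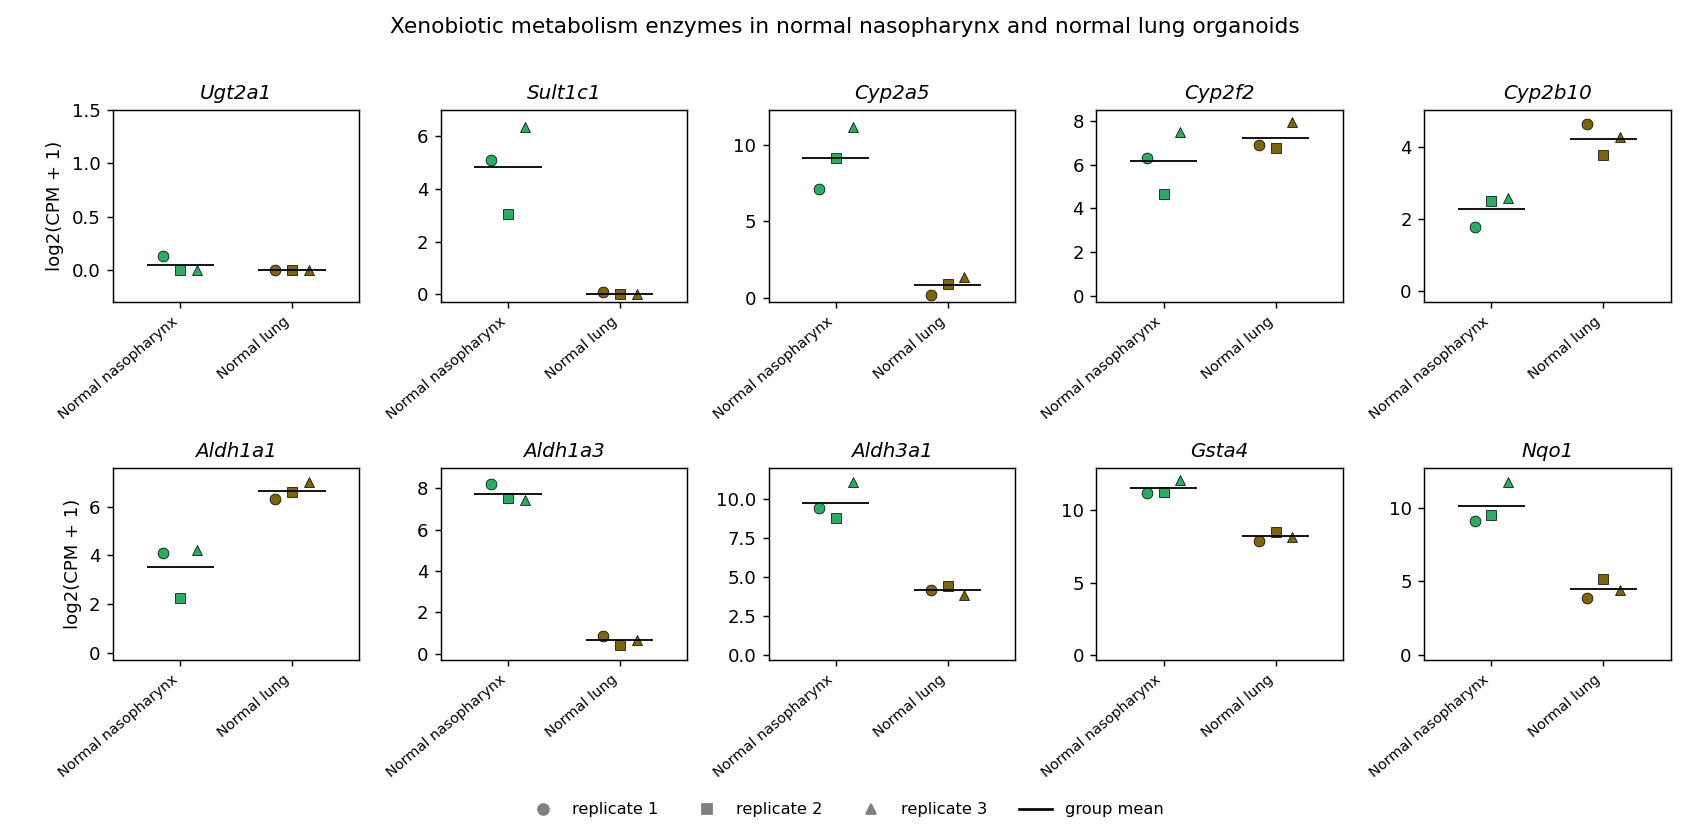
Level of each of the 10 genes in normal nasopharyngeal and normal lung organoids, as log2(CPM + 1) on the vertical axis. Each point is 1 library and each line is the mean of the log2 values of 3 libraries. Cyp2a5, Sult1c1, Aldh1a3, Aldh3a1, Gsta4 and Nqo1 sit higher in nasopharynx, Aldh1a1 and Cyp2b10 sit higher in lung, the points of Cyp2f2 overlap, and Ugt2a1 lies at or near 0 in both, which for this gene depends on the counting.

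Ugt2a1, the glucuronosyltransferase of the olfactory epithelium, differed between the tables more than any other member. Each comparator column was set against the Normal_nasopha library of the same number. For genes with at least 100 counts, the median ratio of comparator counts to Normal_nasopha counts was 0.870, 0.882 and 0.887 in replicates 1, 2 and 3. Among the members other than Ugt2a1 and Cyp2f2 the ratio lay between 0.763 and 0.939, with the extremes in Sult1c1 and Aldh1a1. Ugt2a1 had 76, 94 and 2781 counts in the comparator and 2, 0 and 0 counts in Normal_nasopha. Its neighbour Ugt2a2 had 7, 10 and 347 counts in the comparator and 0, 1 and 12 in Normal_nasopha. In the annotation used here, Ugt2a1 and Ugt2a2 shared 1771 exonic bases, 68.9% of the exonic length of Ugt2a1, and 5 of its 7 exons were identical. The listed 0 of Ugt2a1 in the table of normal organoids therefore cannot be read as absence from the tissue, and Ugt2a1 is left out of the comparison of nasopharynx with lung.

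Cyp2f2 moved the other way between the countings. It had 2469, 829 and 5784 counts in the comparator and 1613, 525 and 3736 counts in Normal_nasopha, a ratio of 1.53, 1.58 and 1.55. The antisense gene Gm15883 overlapped 274 exonic bases of Cyp2f2 (13.5%) and held 15, 2 and 27 counts in Normal_nasopha, far fewer than the gap. Whether Cyp2f2 reads were lost to this overlap in the table of normal organoids was not tested, and the strand setting is not given in the sources used here.

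**Figure D2:**
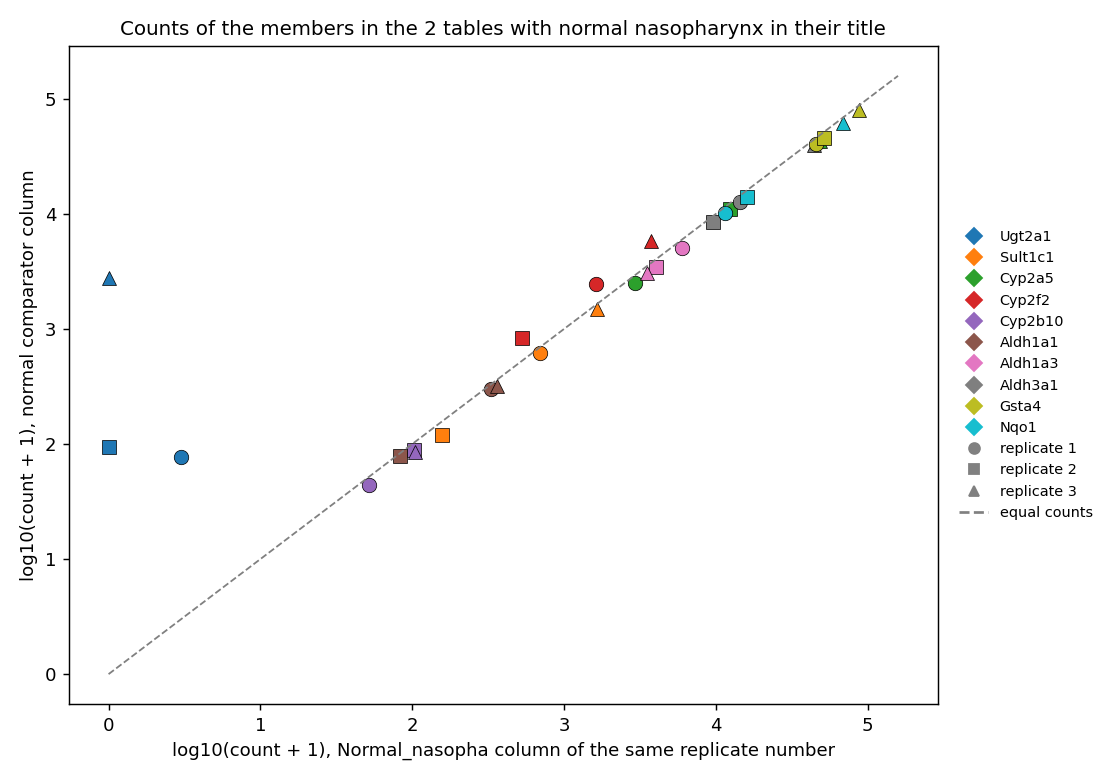
Counts of the 10 genes in the normal comparator (vertical axis) against the Normal_nasopha library of the same replicate number (horizontal axis), both as log10 of the count plus 1, with the dashed line at equal counts. Of the 10 genes, 8 lie just under the line, Cyp2f2 lies above it with ratios of 1.53 to 1.58, and Ugt2a1 stands far above it with 76, 94 and 2781 counts against 2, 0 and 0.

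The next comparisons asked how the enzymes differ between tumour organoids and normal nasopharyngeal tissue. RNA of Cyp2a5, Sult1c1, Aldh1a3 and Gsta4 was called lower in each of the 4 tumour groups, by 10.3-fold or more, and no member was called higher in any group. The first 3 did not exceed 18.6 CPM in any of the 10 tumour libraries. In edgeR's fit over 14096 genes, Ugt2a1, Sult1c1 and Cyp2a5 passed the count filter only through the comparator, where they are high, so a call could hardly go another way. Of the other 7 members, 5 were called lower for Ctr, 6 for LMP1, 2 for Lung-Ctr and 3 for Lung-LMP1. Over all genes 35.1% were called for Ctr (16.1% higher, 19% lower), 28.2% for LMP1 (13.7% higher, 14.5% lower), 27.4% for Lung-Ctr (13.2% higher, 14.2% lower) and 32% for Lung-LMP1 (14.6% higher, 17.4% lower). These 4 comparisons share the 3 comparator columns, so the groups are not independent evidence of one another. The median log2 difference, tumour minus comparator, over those 7 members was -3.88 for Ctr, -6.73 for LMP1, -3.33 for Lung-Ctr and -3.31 for Lung-LMP1. Over all genes the medians were -0.07, -0.02, -0.04 and -0.08.

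The comparator itself was uneven. Of the 10 members, 9 were highest in its replicate 3, and replicate 3 over the mean of replicates 1 and 2 was 33.7 for Ugt2a1, 6.69 for Cyp2a5, 5.28 for Nqo1, 4.09 for Sult1c1, 3.88 for Aldh3a1, 3.55 for Cyp2f2, 1.89 for Gsta4, 1.70 for Aldh1a1, 1.35 for Cyp2b10 and 0.735 for Aldh1a3. Over all 10 members, 8 were called lower for Ctr, 8 for LMP1, 4 for Lung-Ctr and 6 for Lung-LMP1, and without replicate 3 the numbers were 6, 7, 5 and 6. Both sets of counts include Ugt2a1, Sult1c1 and Cyp2a5, which passed the filter only through the comparator, so they do not check the other members alone. With all libraries, 19%, 14.5%, 14.2% and 17.4% of all genes were called lower, and the shares without replicate 3 are not given here. Per kilobase of exon, the comparator ranked Gsta4 highest (mean of 2598 CPM per kb), then Nqo1 (1105), Aldh3a1 (624), Cyp2a5 (541), Cyp2f2 (89.5), Aldh1a3 (49.8), Sult1c1 (28.5), Ugt2a1 (23.0), Aldh1a1 (2.80) and Cyp2b10 (2.004). Over its 3 libraries, the range of each gene overlapped that of its neighbour in this order.

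Ugt2a1 was at 4.59, 5.33 and 167 CPM in the comparator and at 0 counts in all 10 tumour libraries. Measured against a floor of 3 counts over the group, it was at least 810-fold lower in Ctr (edgeR, adjusted p = 0.0296) and at least 845-fold lower in Lung-LMP1 (edgeR, adjusted p = 0.0333). It was at least 636-fold lower in LMP1 (edgeR, adjusted p = 0.0568) and at least 569-fold lower in Lung-Ctr (edgeR, adjusted p = 0.0595), both short of the threshold. The sizes rest mostly on comparator replicate 3, and leaving out any 1 Ctr or Lung-LMP1 library ended the call in that group (adjusted p of 0.0594 to 0.0749). Sult1c1 was at 36.9, 6.75 and 89.4 CPM in the comparator and at 0 in 7 of the 10 tumour libraries. The other values were 0.144 CPM in Ctr replicate 2 and 1.04 and 0.0798 CPM in Lung-LMP1 replicates 2 and 3. Its ratio was 914 in Ctr (counting interval 253 to 7549; edgeR, adjusted p = 0.00357), and it was at least 478-fold lower in LMP1 (edgeR, adjusted p = 0.00935), at least 428-fold lower in Lung-Ctr (edgeR, adjusted p = 0.00891) and 109-fold lower in Lung-LMP1 (edgeR, adjusted p = 0.00909). Without LMP1 replicate 1 or 2 its adjusted p in LMP1 was 0.0789 or 0.0669.

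Cyp2a5 was nearly absent from the counts of all tumour groups. It was at 152, 622 and 2592 CPM in the comparator, at 1.66 CPM in Ctr replicate 2, at 0.0677 CPM in Lung-LMP1 replicate 1 and at 0 in the other 8 tumour libraries. No tumour library came near the lowest comparator library. The fold was 2133 in Ctr (log2 -11.06 ± 1.64; edgeR, adjusted p = 0.00156). It was at least 12190-fold lower in LMP1 (edgeR, adjusted p = 0.00388) and at least 10916-fold lower in Lung-Ctr (edgeR, adjusted p = 0.00374). In Lung-LMP1, 1 count stood against 56594, a ratio of 48589 with a counting interval of 8720 to 1.92e+06 (edgeR, adjusted p = 0.00203). Its copy Cyp2a4, at 1.21, 4.03 and 23.4 CPM in the comparator, was at 0 in all tumour libraries, so no Cyp2a5 reads stood under its name there. The olfactory P450 Cyp2g1 had 1.87, 7.66 and 75.7 CPM in the comparator and 0 in all tumour libraries. The olfactory gland and sustentacular list as a whole was not lost. It summed to 163 to 941 CPM in the comparator, 146 to 507 CPM in Ctr and 456 to 620 CPM in Lung-Ctr. In Lung-LMP1 it summed to 93.2 to 317 CPM, and in LMP1 to 89.7 to 127 CPM, below the comparator.

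Cyp2f2 and Cyp2b10, the other P450 members, were not called lower throughout. Cyp2f2 was at 149, 47.0 and 348 CPM in the comparator, at 19.9, 59.3 and 2.99 CPM in Ctr, at 92.6 and 67.7 CPM in LMP1, at 8.15 and 28.6 CPM in Lung-Ctr and at 4.27, 73.3 and 21.7 CPM in Lung-LMP1. Every tumour library retained Cyp2f2 counts, in contrast to the values of Cyp2a5, and no group passed the test (edgeR, adjusted p from 0.0788 to 0.480). DESeq2 called it lower in Ctr (adjusted p = 0.0124), Lung-Ctr (adjusted p = 0.0102) and Lung-LMP1 (adjusted p = 0.0347), and the authors' deposited table for Ctr against normal nasopharynx lists it at log2 -2.80 (adjusted p = 0.00985). Cyp2b10 was at 2.59, 4.99 and 5.11 CPM in the comparator, at 7.64, 3.75 and 0.417 CPM in Ctr, at 0 and 0.406 CPM in LMP1, at 1.04 and 0.664 CPM in Lung-Ctr and at 5.96, 6.06 and 3.83 CPM in Lung-LMP1. It was called lower in LMP1 alone (21.7-fold; edgeR, adjusted p = 0.0291), where the call ended without LMP1 replicate 1 (adjusted p = 0.157) or comparator replicate 3 (adjusted p = 0.0574). The airway secretory list, in which Cyp2f2 is a usual companion of Scgb1a1, summed to 96.2 to 1283 CPM in the comparator, while Scgb1a1 was at most 0.965 CPM there and at most 0.139 CPM in the tumours. In Lung-LMP1 replicate 2, the library of its group with the most Cyp2f2, the same list summed to 313 CPM. Its part in the Cyp2f2 values was not tested.

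Aldh1a3 had the smallest relative spread of the 3 aldehyde dehydrogenases in the comparator. It was at 307, 197 and 185 CPM in the comparator, at 3.38, 14.3 and 4.94 CPM in Ctr, at 2.44 and 2.03 CPM in LMP1, at 4.39 and 5.12 CPM in Lung-Ctr and at 18.6, 13.4 and 10.1 CPM in Lung-LMP1. The highest tumour library, at 18.6 CPM, was far under the lowest comparator library, at 185 CPM. The folds were 32.4 in Ctr (edgeR, adjusted p = 0.000183), 106 in LMP1 (edgeR, adjusted p = 0.000305), 49.3 in Lung-Ctr (edgeR, adjusted p = 0.000540) and 15.9 in Lung-LMP1 (edgeR, adjusted p = 0.000971), all lower than the comparator.

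Aldh1a1 was at 18.0, 4.37 and 19.0 CPM in the comparator, at 0.220, 0.504 and 1.18 CPM in Ctr, at 0 and 0.0677 CPM in LMP1, at 2.37 and 0.266 CPM in Lung-Ctr and at 0.474, 3.98 and 1.60 CPM in Lung-LMP1. All tumour libraries lay under the lowest comparator library. It was called lower in Ctr (22.4-fold; edgeR, adjusted p = 0.00992) and in LMP1, where the ratio of 692 counts to 1 count was 447 (counting interval 80.0 to 17687; edgeR, adjusted p = 0.00658). In LMP1 the call ended without replicate 1 (adjusted p = 0.0809) or 2 (adjusted p = 0.0509). Lung-Ctr and Lung-LMP1 missed the threshold (edgeR, adjusted p = 0.0576 and 0.0552), and both passed it without comparator replicate 2 (0.0460 and 0.0439). Lung-LMP1 also passed it without its own replicate 2 (0.0463).

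Aldh3a1 varied widely within groups. It was at 758, 479 and 2398 CPM in the comparator, at 66.2, 25.3 and 199 CPM in Ctr, at 20.9 and 45.7 CPM in LMP1, at 7.10 and 723 CPM in Lung-Ctr and at 73.0, 130.3 and 155 CPM in Lung-LMP1. One Lung-Ctr library lay inside the comparator range, and the other was the lowest of all. It was called lower in Ctr (13.03-fold; edgeR, adjusted p = 0.0453) and LMP1 (37.8-fold; edgeR, adjusted p = 0.0386). The Ctr call ended without Ctr replicate 1 or 2 or comparator replicate 3 (adjusted p = 0.119, 0.120 and 0.142), and the LMP1 call without either LMP1 library or comparator replicate 3 (adjusted p = 0.220, 0.158 and 0.0854). In Lung-Ctr it missed the threshold (log2 -1.77; edgeR, adjusted p = 0.356), and without Lung-Ctr replicate 2 it was at -7.43 (adjusted p = 0.0213), with the 1 Lung-Ctr library left assumed to vary like the other groups. In Lung-LMP1 it missed the threshold at log2 -3.31 (edgeR, adjusted p = 0.0667).

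Gsta4 was at 2463, 2608 and 4795 CPM in the comparator, at 160.3, 169 and 348 CPM in Ctr, at 4.70 and 8.39 CPM in LMP1, at 99.998 and 412 CPM in Lung-Ctr and at 308, 294 and 330.0 CPM in Lung-LMP1. No tumour library reached the comparator range, and both LMP1 libraries stood far below the other 8. The folds were 15.3 in Ctr (edgeR, adjusted p = 0.000675), 521 in LMP1 (edgeR, adjusted p = 0.000223), 13.1 in Lung-Ctr (edgeR, adjusted p = 0.00301) and 10.3 in Lung-LMP1 (edgeR, adjusted p = 0.00232). These 4 calls held without any single library.

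Nqo1 was at 610.3, 803 and 3733 CPM in the comparator, at 67.1, 52.4 and 245 CPM in Ctr, at 7.25 and 10.1 CPM in LMP1, at 18.9 and 362 CPM in Lung-Ctr and at 60.2, 64.1 and 115 CPM in Lung-LMP1. Every tumour library lay under the lowest comparator library. It was called lower in Ctr (14.7-fold; edgeR, adjusted p = 0.0184), LMP1 (204-fold; edgeR, adjusted p = 0.00674) and Lung-LMP1 (21.0-fold; edgeR, adjusted p = 0.0143). Each of these calls ended without some libraries: Ctr replicate 1 or 2 or comparator replicate 3 for Ctr (adjusted p = 0.0609, 0.0620 and 0.0736), LMP1 replicate 1 or 2 for LMP1 (0.0828 and 0.0674) and Lung-LMP1 replicate 1 for Lung-LMP1 (0.0548). Lung-Ctr missed the threshold (log2 -3.21; edgeR, adjusted p = 0.0746) and passed it without Lung-Ctr replicate 2 (log2 -6.52, adjusted p = 0.0265), again with 1 Lung-Ctr library left.

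In Lung-Ctr, the library low in Aldh3a1 and Nqo1 was also low in the basal keratin Krt5, at 19.8 CPM in replicate 1 and 1993 CPM in replicate 2. Basal markers summed to 3505 to 17893 CPM in the comparator, 1438 to 3681 CPM in Ctr, 164 to 218 CPM in LMP1, 895 to 4911 CPM in Lung-Ctr and 2496 to 4051 CPM in Lung-LMP1. Their part in the differences between tumours and comparator was not tested.

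**Figure D3:**
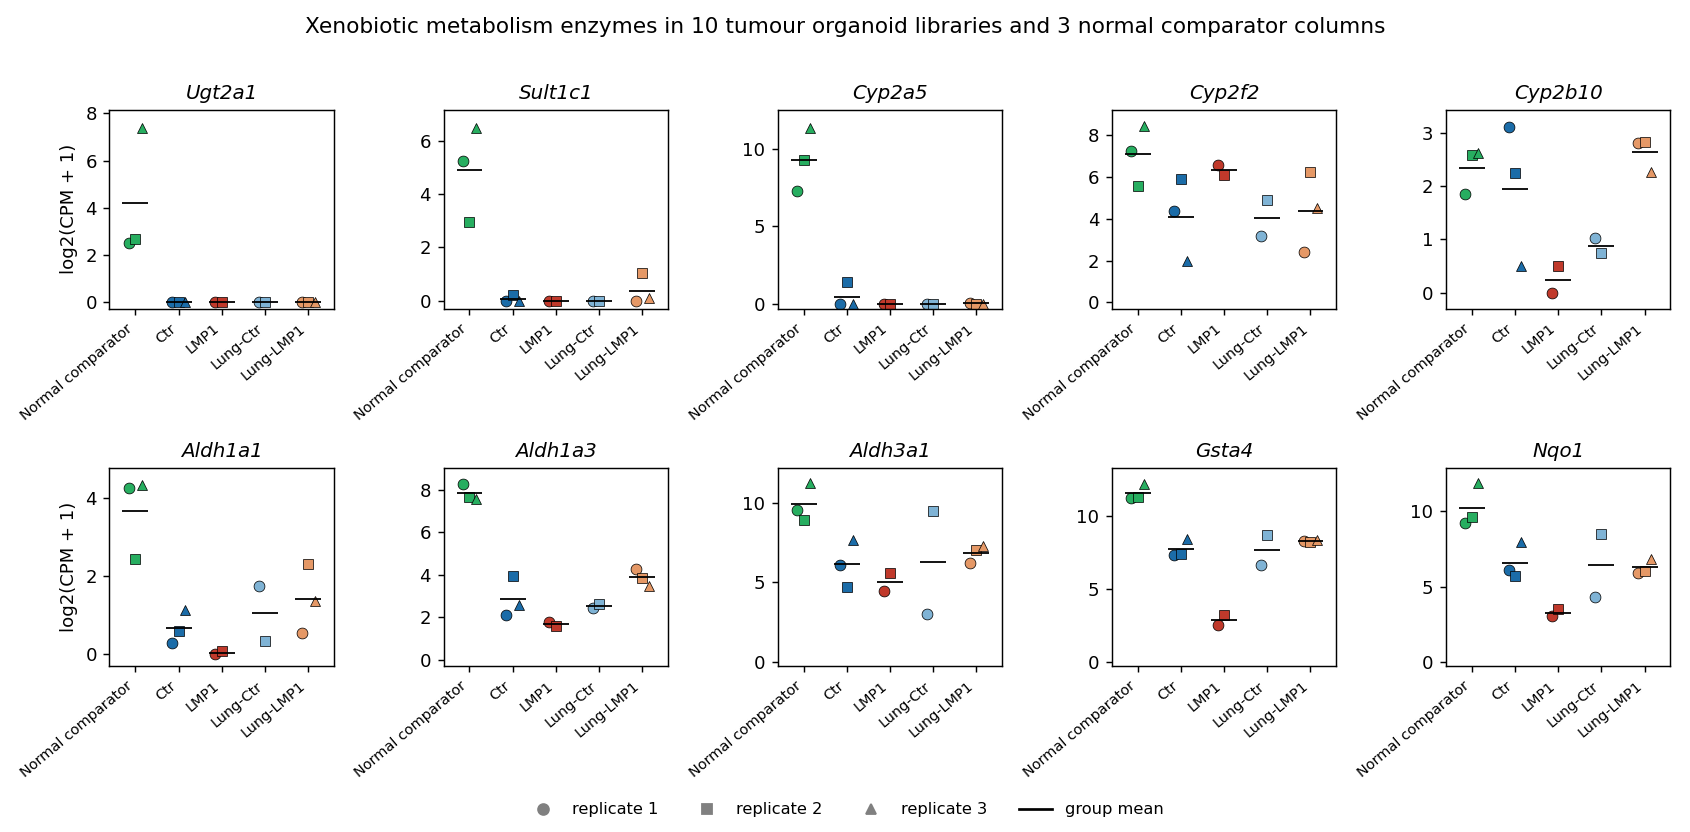
Level of each of the 10 genes in the normal comparator and the 4 tumour groups, as log2(CPM + 1) on the vertical axis. Each point is 1 library and each line is the mean of the group's log2 values (3 comparator, 3 Ctr, 2 LMP1, 2 Lung-Ctr and 3 Lung-LMP1 libraries). Ugt2a1, Sult1c1 and Cyp2a5 lie at or near 0 in all tumour libraries, Cyp2f2 is retained, and Gsta4 is lowest in the LMP1 libraries at 4.70 and 8.39 CPM.

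The remaining comparisons asked how LMP1 and the Lung prefix relate to the enzymes among the tumours. Gsta4 RNA was 35.2-fold lower in LMP1 than in Ctr, and 52.1-fold higher in Lung-LMP1 than in LMP1. Of the 7 members that passed the filter in this fit of 13460 genes (all but Ugt2a1, Sult1c1 and Cyp2a5), Gsta4 alone was called in LMP1 against Ctr, and 5 members had an unadjusted p under 0.05. Over all genes, 16.4% were called in that comparison (7.36% higher, 9.06% lower). The log2 difference of Gsta4, LMP1 minus Ctr, was -5.14 ± 0.72 (SE; edgeR, adjusted p = 0.00562), and the highest LMP1 library, at 8.39 CPM, was well under the lowest Ctr library, at 160.3 CPM. Without LMP1 replicate 1 the value was -4.77 (adjusted p = 0.0902) and without LMP1 replicate 2 it was -5.61 (adjusted p = 0.0566), which leave 1 LMP1 library assumed to vary like the other groups.

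Nqo1 (log2 -3.84; edgeR, adjusted p = 0.0622), Cyp2b10 (log2 -4.29; edgeR, adjusted p = 0.0681) and Aldh1a3 (log2 -1.76; edgeR, adjusted p = 0.0821) lay below Ctr in both LMP1 libraries and missed the threshold. DESeq2 called all 3 (adjusted p = 0.00419, 0.00339 and 0.0215). For Cyp2b10 the groups all but touched, with 6 counts in LMP1 replicate 2 (0.406 CPM) and 6 in Ctr replicate 3 (0.417 CPM). In the authors' deposited table for this comparison the log2 fold changes were -5.14 for Gsta4 (adjusted p = 1.87e-25), -3.85 for Nqo1 (adjusted p = 2.84e-07) and -4.32 for Cyp2b10 (adjusted p = 0.0188), while the adjusted p of Aldh1a3 was 0.0557. Cyp2f2, at 80.2 ± 17.6 CPM (SD, n = 2) in LMP1 and 27.4 ± 28.9 CPM (SD, n = 3) in Ctr, did not pass (log2 1.54; edgeR, adjusted p = 0.396). Aldh1a1 had 1 count in LMP1 against 27 in Ctr, a ratio of 21.2 with a counting interval of 3.49 to 867 (edgeR, adjusted p = 0.129). Aldh3a1 overlapped between the groups (log2 -1.57; edgeR, adjusted p = 0.470).

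Lung-LMP1 against LMP1 gave 2 members called higher, Gsta4 and Aldh1a3, with 10.1% of all genes called (6.17% higher, 3.95% lower). Gsta4 differed by 5.70 ± 0.74 (edgeR, adjusted p = 0.00495) and Aldh1a3 by 2.79 ± 0.64, a 6.89-fold difference (edgeR, adjusted p = 0.0311). The Gsta4 libraries of Lung-LMP1, 308, 294 and 330.0 CPM, were tightly grouped (311 ± 18.1 CPM, SD, n = 3) and far above the LMP1 libraries. The Gsta4 call ended without LMP1 replicate 1 (5.33, adjusted p = 0.0905). The Aldh1a3 call ended when any of the 5 libraries was left out (adjusted p from 0.0617 to 0.217). Cyp2b10 (log2 4.84, adjusted p = 0.0661), Aldh1a1 (ratio of 69.2 with a counting interval of 12.1 to 2764, adjusted p = 0.0648) and Nqo1 (log2 3.32, adjusted p = 0.111) lay above LMP1 in each Lung-LMP1 library and missed edgeR's threshold. Aldh3a1 (log2 1.97, adjusted p = 0.426) and Cyp2f2 (log2 -1.15, adjusted p = 0.588) did not pass either. In the authors' deposited table for this comparison 6 of the members had an adjusted p under 0.05. The share of all genes at that level was not worked out, so the count has no background in that table. Its log2 fold changes were 5.71 for Gsta4 (adjusted p = 1.45e-98), 3.32 for Nqo1 (2.65e-18), 2.78 for Aldh1a3 (2.24e-10), 4.92 for Cyp2b10 (2.72e-07), 1.97 for Aldh3a1 (5.35e-05) and 6.16 for Aldh1a1 (0.00339). This comparison and that of LMP1 with Ctr share the 2 LMP1 libraries.

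Lung-LMP1 against Lung-Ctr and Lung-Ctr against Ctr had 0 genes called by edgeR (0% higher and 0% lower over all genes), and thus 0 members. At an unadjusted p under 0.05 there were 2295 genes in the former and 717 in the latter, with 1 and 0 members among them. DESeq2 called 881 and 40 genes, and 0 members in both. Gsta4 stood at 311 ± 18.1 CPM in Lung-LMP1 and 256 ± 220.5 CPM (SD, n = 2) in Lung-Ctr (log2 0.33; edgeR, adjusted p = 0.793). In Lung-Ctr against Ctr the 7 members tested ran from log2 -2.13 for Cyp2b10 to 1.96 for Aldh3a1 (edgeR, adjusted p = 0.915 for both). The authors' deposited table for Lung-LMP1 against Lung-Ctr listed Cyp2b10 at log2 2.68 (adjusted p = 0.000695) and Aldh1a3 at 1.61 (adjusted p = 0.0104), the former at 2.68 (adjusted p = 0.309) and the latter at 1.62 (adjusted p = 0.230) in edgeR.

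The difference of differences, which asks whether the difference between genotypes changes with the Lung prefix, was called for 1 member. For Gsta4 it was 5.47 ± 0.89 on the log2 scale (44.4-fold; edgeR, adjusted p = 0.0395), with 0.892% of all genes called (0.81% higher, 0.0817% lower). Cyp2b10 (log2 6.97, adjusted p = 0.126), Aldh1a3 (log2 3.38, adjusted p = 0.114), Aldh1a1 (log2 4.70, adjusted p = 0.316) and Nqo1 (log2 2.63, adjusted p = 0.449) did not pass in edgeR, and Aldh3a1 (log2 0.01) and Cyp2f2 (log2 -0.64) were smaller still. The Gsta4 call was kept without Ctr replicate 2 or either Lung-Ctr library. It ended without Ctr replicate 1 or 3 (adjusted p = 0.0663 and 0.0536), LMP1 replicate 1 or 2 (0.281 and 0.115) or any Lung-LMP1 library (0.0762 to 0.0999), and with the replicate number as a block (adjusted p = 0.129).

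Basal and squamous markers, like Gsta4, were lowest in LMP1 among the tumours, while fibroblast markers did not follow Gsta4 in every library. In Lung-Ctr the basal markers summed to 895 to 4911 CPM and the squamous markers to 981 to 1375 CPM. In LMP1, basal markers summed to 164 to 218 CPM and squamous markers to 18.3 to 37.3 CPM, against 1438 to 3681 CPM and 293 to 952 CPM in Ctr and 2496 to 4051 CPM and 1632 to 3082 CPM in Lung-LMP1. The basal transcription factor Trp63 was at 2.60 and 1.96 CPM in LMP1 and at 157, 59.99 and 336 CPM in Ctr. The 8 fibroblast markers summed to 49.4 to 96.5 CPM in LMP1 with none at 0, and to 0.557 to 128 CPM in Ctr, 0.209 to 0.797 CPM in Lung-Ctr and 0.542 to 1.52 CPM in Lung-LMP1. The sum of 128 CPM was that of Ctr replicate 2, where Gsta4 was at 169 CPM. The part of all these markers in the Gsta4 result was not tested.

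**Figure D4:**
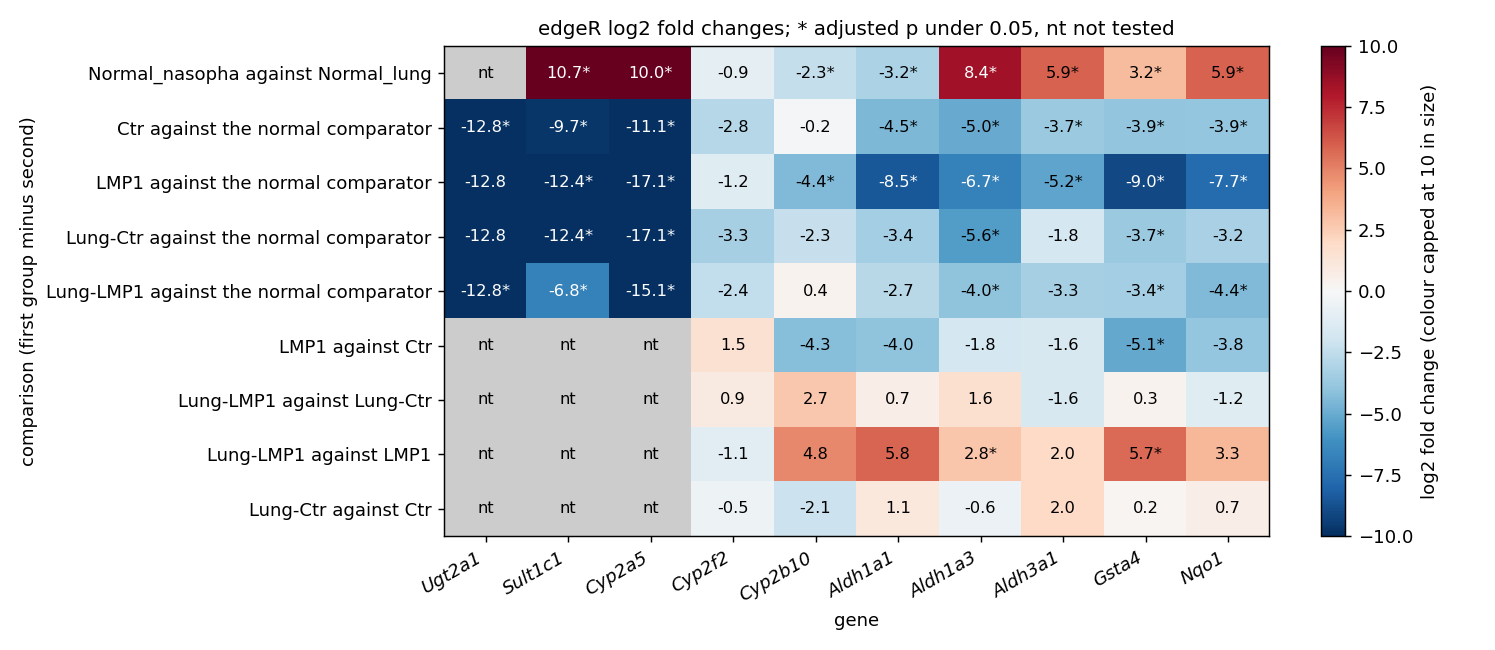
Log2 fold change of each of the 10 genes in each comparison from edgeR's quasi-likelihood fits, as colour and as a number, with the colour scale ending at 10 in either direction. An asterisk marks an adjusted p under 0.05 and nt a gene that did not pass the count filter. Gsta4 is the only gene with an asterisk in LMP1 against Ctr (-5.14). The difference of differences is not drawn. Fitted values of genes with 0 to 3 counts in a group depend on the prior count and are no bound.

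The wider pathway was read from 8 gene lists. All 8 leave out the 10 members, so that Nqo1 is not in the NRF2 counts and Aldh1a1 and Aldh1a3 are in neither the aldehyde dehydrogenase nor the retinoic acid counts. The NRF2 list held 27 genes, all tested. In normal tissue 15 of 27 were higher in nasopharynx than in lung and 0 lower, beside 15.4% and 15.6% of all genes, with a median log2 difference of 1.202. Against the comparator the number lower was 22 of 27 for Ctr, 22 for LMP1, 20 for Lung-Ctr and 20 for Lung-LMP1, with 0 higher in each, and medians of -1.72, -1.77, -1.71 and -1.40. Over all genes, 19%, 14.5%, 14.2% and 17.4% were lower in these groups and 16.1%, 13.7%, 13.2% and 14.6% higher. The all-gene medians were -0.07, -0.02, -0.04 and -0.08. Hmox1, which degrades haem, was at 8.16 ± 2.03 CPM (SD, n = 3) in Ctr and 1996 ± 2163 CPM (SD, n = 3) in the comparator (log2 -8.02; edgeR, adjusted p = 0.000152). G6pdx, which supplies NADPH, was at 133 ± 25.2 CPM against 647 ± 143 CPM (log2 -2.36; edgeR, adjusted p = 8.45e-05). Srxn1, which repairs oxidised peroxiredoxins, was 82.0-fold lower in LMP1 (edgeR, adjusted p = 0.000585). Nfe2l2 itself was not called in Ctr (log2 -0.61; edgeR, adjusted p = 0.114), while Keap1 was lower (log2 -1.41; edgeR, adjusted p = 0.000152).

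Between LMP1 and Ctr, 2 of the 27 NRF2-list genes were higher and 4 lower, where 7.36% of all genes were higher and 9.06% lower. The ferritin chains Fth1 (log2 1.15; edgeR, adjusted p = 0.0137) and Ftl1 (log2 0.79; edgeR, adjusted p = 0.0330) were the 2 higher ones. The cystine importer Slc7a11 fell from 485 ± 281 CPM (SD, n = 3) in Ctr to 86.2 ± 0.536 CPM (SD, n = 2) in LMP1 (edgeR, adjusted p = 0.0267) and was at 811.5 ± 259 CPM (SD, n = 3) in Lung-LMP1.

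Phase I genes numbered 72, of which 46 were tested against the comparator. Of these, 8 passed the count filter only with the comparator, as the 3 members named above did, and are not counted here. Of the other 38, Ctr had 12 lower (31.6%) and 1 higher, LMP1 13 (34.2%) and 1, Lung-Ctr 9 (23.7%) and 0, and Lung-LMP1 14 (36.8%) and 1, beside 19%, 14.5%, 14.2% and 17.4% lower over all genes. The higher one in Ctr was Nqo2, a quinone reductase related to Nqo1 (log2 1.75; edgeR, adjusted p = 0.00573). Between the normal tissues the list split, with 15 of 45 higher and 12 lower in nasopharynx, beside 15.4% and 15.6% of all genes. Cyp4f39 was 76.0-fold higher in nasopharynx (edgeR, adjusted p = 0.000299) and the monoamine oxidase Maob 184-fold lower (edgeR, adjusted p = 0.000128). Between LMP1 and Ctr 3 of 38 were lower, a share near the 9.06% of all genes, among them the carbonyl reductase Cbr2 (log2 -4.31; edgeR, adjusted p = 0.0106) and cytochrome b5 Cyb5a (log2 -1.70; edgeR, adjusted p = 0.00326), and 1 was higher. Por, the electron donor of the microsomal P450 enzymes, was not called in Ctr against the comparator (log2 -0.40; edgeR, adjusted p = 0.483).

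Of 61 phase II genes, 43 were tested against the comparator, and 5 of these passed the filter only with it and are not counted here. Of the other 38, 17 were lower in Ctr (44.7%), 15 in LMP1 (39.5%), 13 in Lung-Ctr (34.2%) and 16 in Lung-LMP1 (42.1%), with 1 higher in each group. Over all genes 19%, 14.5%, 14.2% and 17.4% were lower in these groups. Gsta2, of the same transferase class as Gsta4, was at 575 ± 418 CPM (SD, n = 3) in the comparator and 0.329 ± 0.326 CPM (SD, n = 3) in Ctr (edgeR, adjusted p = 0.000237). Gsto1 followed the order of Gsta4 among the tumours, lower in LMP1 than in Ctr (log2 -2.32; edgeR, adjusted p = 0.00946) and higher in Lung-LMP1 than in LMP1 (log2 2.48; edgeR, adjusted p = 0.00943). The microsomal transferase Mgst1 had the opposite order, at 102 ± 7.54 CPM (SD, n = 2) in LMP1, 42.7 ± 4.42 CPM (SD, n = 3) in Ctr and 28.1 ± 4.38 CPM (SD, n = 3) in Lung-LMP1, with a difference of differences of -1.98 (edgeR, adjusted p = 0.0239).

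Of 18 aldehyde dehydrogenase genes, 15 were tested against the comparator, 1 of them only through it. Of the other 14, 4 were lower and 1 higher in Ctr, and 4 lower and 2 higher in LMP1. Of all genes, 19% were lower and 16.1% higher in Ctr, and 14.5% and 13.7% in LMP1, and those shares are the background of the smaller lists too. Aldh2, the main mitochondrial acetaldehyde enzyme, was lower in Ctr (log2 -4.41; edgeR, adjusted p = 0.000405) and in LMP1 (log2 -2.51; edgeR, adjusted p = 0.0132) than in the comparator, yet higher in LMP1 than in Ctr (log2 1.85; edgeR, adjusted p = 0.0145). The retinoic acid list gave 2 higher and 1 lower of 14 in Ctr and likewise in LMP1 against the comparator. The lower one in Ctr was Crabp2, which carries retinoic acid to its receptors (log2 -2.42; edgeR, adjusted p = 0.0493), and the higher ones were Dhrs3 and Stra6. These counts are too near the background to read as a result about the list. Of the aryl hydrocarbon receptor list 1 was higher and 1 lower of 9 in Ctr, likewise near the background. Ahr itself was at a log2 difference of -0.20 in Ctr against the comparator (edgeR, adjusted p = 0.664) and was 2.17-fold higher in nasopharynx than in lung (edgeR, adjusted p = 0.0292).

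Of the nuclear receptor and regulator list, 3 of 12 were lower and 0 higher in Ctr against the comparator, where 19% of all genes were lower, and 6 of 13 were lower and 2 higher in nasopharynx than in lung, where 15.6% of all genes were lower. C/EBP beta (Cebpb), which binds C/EBP sites, was lower in Ctr than in the comparator (log2 -2.03; edgeR, adjusted p = 5.12e-05) and higher in LMP1 than in Ctr (log2 2.02; edgeR, adjusted p = 0.000408). Its part in the levels of Cyp2a5, whose window held a C/EBP core, was not tested. Of the transporters, 4 of 14 were lower and 2 higher in Ctr, beside the same 19% and 16.1% of all genes. The efflux pump Abcg2 was higher, at 9.90 ± 1.56 CPM (SD, n = 3) in Ctr and 0.160 ± 0.127 CPM (SD, n = 3) in the comparator (edgeR, adjusted p = 0.000308).

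**Figure D5:**
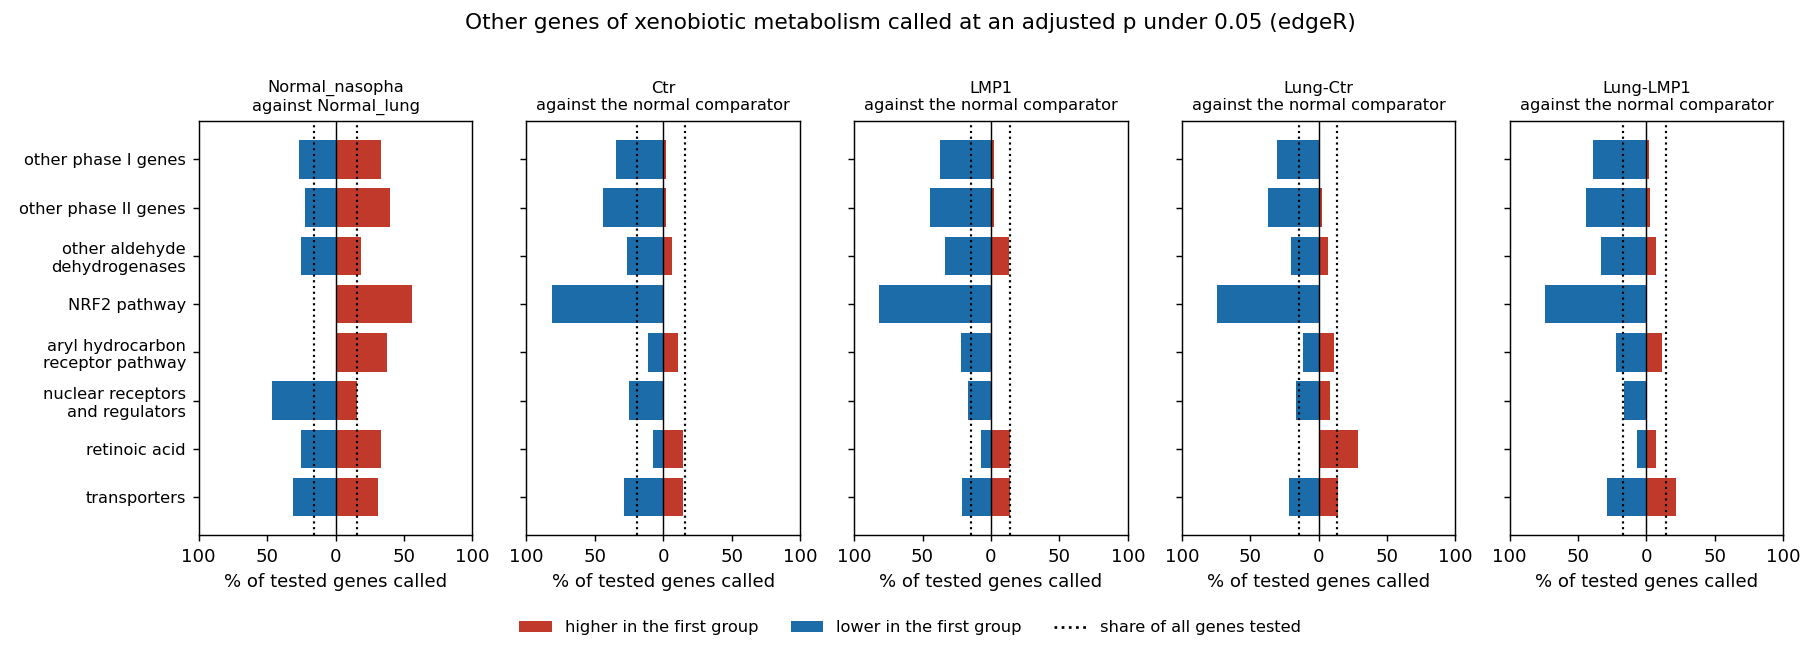
Percentage of the tested genes of each list that were called higher or lower (edgeR, adjusted p under 0.05), for normal nasopharynx against lung and for each tumour group against the normal comparator. All tested genes are counted, those that passed the filter only through the comparator included. Dotted lines give the share of all tested genes called in that direction. On the lower side the NRF2 list has 20 to 22 of 27 genes called in the 4 tumour groups, and the retinoic acid list 0 or 1 of 14.

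As a description of likeness, log2(CPM + 1) values were correlated over the 13 libraries of comparator and tumours, which share the contrast of normal and tumour tissue. The genes most like Nqo1 were Cbr3 (Pearson r = 0.980), Rdh12 (0.977) and Gclm (0.970), and those most like Gsta4 were Epha1 (0.988), Urah (0.979) and Lypd3 (0.974). Cyp2a5 was closest to Bpifb4 (0.994), Ces1e (0.991) and F5 (0.988), and Sult1c1 to Rgs5 (0.986), Sptssb (0.985) and Slc6a20a (0.982). Ugt2a1 was closest to Sult1b1 (0.998), Dsg1b (0.998) and Slc35f3 (0.996), where comparator replicate 3 sets most of the value. Aldh1a3 was nearest to Tmprss11b (0.956), Cnfn (0.955) and Gpx8 (0.949), Aldh3a1 to Ugt1a6a (0.954), Mapkapk3 (0.951) and Rasa4 (0.935), and Aldh1a1 to Shkbp1 (0.943), Gpx8 (0.941) and Pla2g4a (0.939). Cyp2f2 had the weakest best match, 5031425E22Rik (0.911), and also resembled Il33 (0.884). Cyp2b10 stayed under 10 CPM in these libraries and was left out.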

How the data were processed

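The authors deposited 6 tables of gene counts from RNA sequencing, with the log2 fold changes and adjusted p-values of their own comparisons beside the counts, per the file headers. STAR, DESeq2, DESeq and the build mm10 are named in the submitters' processing notes. Of versions, strand setting and annotation nothing was given in the sources used here. 13 columns that occur in more than 1 table were identical in all 13 cases. Of the entries in the table of normal organoids, 24781 had no gene symbol, and 78 that share a symbol were kept apart. The 32 value columns headed TPM were not used.

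Counts were tested with edgeR 4.0.16 (R 4.3.3; filterByExpr, TMM, robust quasi-likelihood F-test, Benjamini-Hochberg adjustment, threshold 0.05) in 3 fits, over the 10 tumour libraries (6 residual degrees of freedom), those plus the 3 comparator columns (8) and the 6 normal libraries (4). Scripts were tested on simulated data. Alternatives were DESeq2 1.42.0, RLE size factors in edgeR, no count filter, replicate numbers as a block, a fit of only the groups compared, and each library left out. Ratios against a group with 1 to 3 counts carry exact 95% counting intervals, and folds against a group at 0 use a floor of 3 counts over the group. Gene positions are from GENCODE vM21 (GRCm38) and promoters from RefSeq.

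The members, gene lists and marker lists were chosen with earlier results of these data known. All members and their near copies are named, the genes most like a member (at least 10 CPM in a library), and of each list those among the 2 called genes of smallest adjusted p in each direction and comparison. The regulators Nfe2l2, Keap1, Nr1i3 and Por, Trp53, Cdkn2a and Myc were named outside that rule after their values were seen, and so was Ahr against the comparator. Some genes that the rule names are left out here.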

Additional observations from a re-analysis of the deposited data

Results flagged for a closer look

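The Gsta4 difference between TMPL and TMP groups changed with the Lung prefix by edgeR's test. The difference of differences was 5.47 on the log2 scale (edgeR, adjusted p = 0.0395), since Gsta4 was lower in LMP1 than in Ctr (log2 -5.14) and Lung-LMP1 minus Lung-Ctr was 0.33. By edgeR Gsta4 was the 1 member called in that test. DESeq2, which called more genes in all, called 3 members. The Gsta4 call by edgeR ended when most single libraries were left out, and with the replicate number as a block. Groups of 2 or 3 libraries are too small to look for single outlying libraries.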

How the results depend on the processing

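Of 882 recomputed fold changes of members, 775 kept their direction and side of the threshold, 50 lost a call, 35 gained one and 22 reversed. None of the 38 called fold changes reversed, and 21 were kept under all alternatives. These tallies include Ugt2a1, Sult1c1 and Cyp2a5 against the comparator, and Sult1c1, Cyp2a5 and Aldh1a3 between the normal tissues. Those genes passed the filter only through the group where they are high and could hardly reverse. The tallies therefore do not check the other calls alone. With TMM-scaled CPM, 70 of 70 levels moved by less than 1 SD.

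Replicate numbers did not pair the libraries: correlations of same-numbered deviations ran from -0.324 to 0.161. With the replicate number as a block, genes called fell from 2210 to 483 (LMP1 against Ctr), 1361 to 360 (Lung-LMP1 against LMP1), 120 to 2 (difference of differences) and 3980 to 2517 (LMP1 against the comparator), and members from 2 to 1 in Lung-LMP1 against LMP1 and 1 to 0 in the difference of differences.

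DESeq2 called 3576 genes and 4 members in LMP1 against Ctr, 2537 and 5 in Lung-LMP1 against LMP1, 926 and 3 in the difference of differences, 881 genes in Lung-LMP1 against Lung-Ctr, 40 in Lung-Ctr against Ctr, and 7 members in Lung-Ctr against the comparator. The number of all genes called is not given here for the last, so its 7 members have no background. They may include members that passed edgeR's filter only through the comparator. With only the groups compared in the fit, LMP1 against Ctr had 2 members, Lung-LMP1 against LMP1 2682 genes and 6 members, and the comparisons with the comparator 2917 (Ctr), 2288 (LMP1), 168 with 1 member (Lung-Ctr) and 2937 genes (Lung-LMP1). The 2 members in LMP1 against Ctr likewise stand without the number of all genes called.

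With each library left out, genes called ranged from 25 to 1920 (LMP1 against Ctr), 33 to 949 (Lung-LMP1 against LMP1), 0 to 33 (Lung-LMP1 against Lung-Ctr), 0 to 31 (Lung-Ctr against Ctr), 4 to 331 (difference of differences), 736 to 4836 (LMP1 against the comparator), 2018 to 4565 (Lung-Ctr), 2354 to 5346 (Lung-LMP1) and 2657 to 5421 (normal tissues). Members called ranged from 0 to 2, 0 to 1 and 0 to 1 in LMP1 against Ctr, Lung-LMP1 against LMP1 and the difference of differences, and from 5 to 8 and 3 to 9 in Ctr and LMP1 against the comparator.

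All reversals were of values that were not called. With libraries left out, Lung-LMP1 against Lung-Ctr ranged from -0.47 to 2.07 for Cyp2f2, -0.31 to 2.93 for Aldh1a1 (-0.13 with the block), -2.56 to 4.12 for Aldh3a1, -0.37 to 1.69 for Gsta4 and -2.15 to 2.13 for Nqo1. Lung-Ctr against Ctr ranged from -1.68 to 0.75 for Cyp2f2, -1.18 to 1.93 for Aldh1a1, -0.95 to 0.24 for Aldh1a3, -3.72 to 3.06 for Aldh3a1, -1.12 to 0.93 for Gsta4 and -2.64 to 1.74 for Nqo1. The difference of differences ranged from -2.01 to 0.53 for Cyp2f2 and -1.09 to 5.69 for Aldh3a1 (-0.13 with the block), and Ctr against the comparator from -1.12 to 0.32 for Cyp2b10. Most of the widest ranges turn on Lung-Ctr, whose 2 libraries differ. The cause was not tested. With 2 or 3 libraries a group and 4 to 8 residual degrees of freedom, a difference that missed the threshold is not shown to be absent.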
